A study of Mus musculus with 18 samples.

Results

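Fibroblasts and stromal feeder cells are commonly recognised by a small set of matrix, chemokine and surface genes, and 10 of these were followed through 18 libraries of mouse germline and pluripotent cells. The genes were Col1a1, Col1a2, Col3a1, Dcn, Lum, Sparc, Fn1, Timp3, Cxcl12 and Thy1. They were chosen by gene symbol, and all 10 were found among the 34896 genes listed for each library. The series as a whole asks how cyclosporin A (CsA, which blocks the phosphatase calcineurin) and FGF signalling support primordial germ cell-like cells (PGCLCs, germline precursors induced in vitro) in culture on such feeders.

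There were 9 groups of 2 libraries each. Embryonic stem cells (ESC) and the epiblast-like cells made from them (EpiLC) were unsorted. Day 4 PGCLCs (d4 PGCLC), induced from EpiLC as floating aggregates, were sorted for mVenus. These 3 groups were C57BL/6 cells, all carried the Blimp1-mVenus and Stella-ECFP reporters (BVSC), and were grown without feeders. ESC were kept on poly-L-ornithine and laminin, and EpiLC on a fibronectin coat. Day 4 PGCLCs were also sorted, placed on m220-5 feeder cells for 7 days and sorted again for mVenus (d4c7), in the conditions called CsA, FGF10, FGF2 and FR10. These d4c7 cells carried the same BVSC reporters, but their strain label was B6D2F1. Primordial germ cells of embryonic day 9.5 embryos carrying Stella-EGFP (strain label B6D2F1 x C57BL/6) spent 5 days on the same feeders and were then sorted for EGFP (E9.5c5), in CsA and in FR10. FR10 stands for forskolin and rolipram, which raise cAMP. The medium described for feeder cultures held both agents, stem cell factor (SCF) and fetal calf serum. The sources used here do not give the CsA and FGF doses, nor say whether forskolin and rolipram were also in those cultures. The feeders were adapted to forskolin and rolipram and then treated with mitomycin C, which stops their division. No library of the feeder cells themselves was analysed here. Strain changed together with culture between d4 PGCLC and d4c7, and the 2 cannot be told apart in that comparison. The cultured replicates are biological by the protocol, whereas for ESC, EpiLC and d4 PGCLC nothing says that the replicates were separate cultures, and p-values there may measure technical spread.

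Connective tissue matrix is built by fibroblasts and related stromal cells. Type I collagen is a fibre of COL1A1 and COL1A2 chains and type III collagen of COL3A1 chains; decorin (Dcn) and lumican (Lum) are small leucine-rich proteoglycans that coat such fibres. Fibronectin (Fn1) is an adhesive glycoprotein and SPARC binds collagen, and both are also made by cells other than fibroblasts, early embryonic cells among them. TIMP3 inhibits metalloproteinases, CXCL12 is the chemokine that guides migrating germ cells through CXCR4, and THY1 is a surface glycoprotein of many fibroblasts and of other cells. Primordial germ cells in culture have long been grown on stromal feeders that present SCF, and cells sorted from such a culture can carry feeder cells or their RNA with them.

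Promoter windows are shown for 3 of the genes. They set side by side a pair of collagen genes that were both higher in d4c7 FR10 than in d4 PGCLC and a matrix gene that followed another course. RefSeq windows (GRCm38.p6, 250 bases before to 50 after the gene start, read on the gene's strand) were matched for 5 of the 10 genes, and the 3 are printed 5′ to 3′. Capitals mark 3 short motifs found on either strand. The first is CCAAT, known as the CCAAT box. The second is TATAAA, which many promoters carry shortly before the start of transcription. The third is GGGCGG, the core of the GC box. No match overlapped another in these windows. The windows are Col1a2 at chr6:4505368-4505667 (plus strand), Col3a1 at chr1:45311288-45311587 (plus strand) and Sparc at chr11:55420031-55420330 (minus strand).
Col1a2: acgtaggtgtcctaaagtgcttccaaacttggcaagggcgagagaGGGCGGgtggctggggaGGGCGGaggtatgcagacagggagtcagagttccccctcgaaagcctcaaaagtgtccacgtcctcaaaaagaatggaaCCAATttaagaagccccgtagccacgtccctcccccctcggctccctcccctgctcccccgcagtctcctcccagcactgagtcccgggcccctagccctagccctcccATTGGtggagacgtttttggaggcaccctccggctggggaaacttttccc
Col3a1: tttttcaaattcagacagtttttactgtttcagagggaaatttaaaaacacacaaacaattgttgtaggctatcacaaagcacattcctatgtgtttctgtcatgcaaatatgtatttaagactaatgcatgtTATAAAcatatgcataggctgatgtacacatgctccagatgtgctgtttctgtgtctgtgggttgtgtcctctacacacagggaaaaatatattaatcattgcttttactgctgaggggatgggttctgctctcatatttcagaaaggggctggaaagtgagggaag
Sparc: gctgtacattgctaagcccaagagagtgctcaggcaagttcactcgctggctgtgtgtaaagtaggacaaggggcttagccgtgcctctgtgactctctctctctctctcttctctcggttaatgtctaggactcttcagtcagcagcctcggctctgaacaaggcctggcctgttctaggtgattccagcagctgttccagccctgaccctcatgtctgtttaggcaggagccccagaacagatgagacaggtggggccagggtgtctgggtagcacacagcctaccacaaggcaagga
The Col1a2 window had 2 CCAAT matches, one in each orientation, and 2 GGGCGG matches, with 13 CpG sites and 61% G + C. Col3a1, in contrast, had 1 TATAAA match, no CpG site and 37.7% G + C. The Sparc window held none of the 3 motifs, and had 4 CpG sites and 55.3% G + C. Among 32851 RefSeq promoter windows of the same length, 37.4% held CCAAT, 13.6% held TATAAA and 35.7% held GGGCGG, and the median was 7 CpG sites. The 2 fibrillar collagen windows thus shared none of these motifs. Such matches describe the letters only.

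Expression was measured by SC3-seq, which reads the 3′ ends of transcripts from amplified cDNA. Levels are in RPM, reads scaled by the authors to a fixed library total in the deposited files, without correction for transcript length. Read depth inferred from the smallest step between values ran from 2129323 to 7547917 reads, so that 3 reads, the lowest level taken as detected, equalled 0.397 to 1.41 RPM. Germ cell markers were read as a check of the labels. Dppa3 lay between 666 and 3691 RPM in the 12 feeder-cultured libraries and was at 771 and 628 RPM in d4 PGCLC. Dazl was at 40.0 to 1112 RPM in the cultured libraries, against 2.35 to 12.2 RPM in the 6 feeder-free libraries. Over the tested genes the median log2 difference between replicates was wider in d4c7 FGF2 (0.468), E9.5c5 FR10 (0.426) and E9.5c5 CsA (0.601) than in the other groups (0.193 to 0.290). The 2 FGF2 libraries, like those of either E9.5c5 group, therefore stand apart from each other, and results that rest on them are given below without them.

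In the tests, genes with at least 10 RPM in at least 2 libraries were kept, which left 9561 genes and 9 of the 10 markers. Lum failed this filter. Thy1 passed only through EpiLC, Col1a1 only through 2 libraries (d4c7 FR10 replicate 2 and FGF10 replicate 1), and Col1a2 and Col3a1 only through cultured libraries. A gene that passes through the group where it is high is bound to look higher there, so counts over the tested markers describe these 9 genes and support nothing about all 10. Changes are log2 fold changes of log2(RPM + 1) from limma, given with the SE, and a gene was called at a Benjamini-Hochberg adjusted p under 0.05 over all tested genes. This scale understates changes of genes with low levels. With 1 library of a group left out, the lone remaining one is assumed to vary like the other groups. Dppa3 and Dazl are 2 of 12 germ cell markers read here, all of which were tested. Over the 4 d4c7 groups against d4 PGCLC, 3 of the 12 rose (Dppa3, Ddx4 and Dazl) and 6 fell (Prdm14, Tfap2c, Kit, Nanog, Prdm1 and Dnd1), where 12.3% of all tested genes rose and 23.1% fell, and their median change was -0.65 on the log2 scale. Of these 9 calls, that of Dppa3 was lost without d4 PGCLC replicate 2 (limma adjusted p = 0.154).

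**Figure D1:**
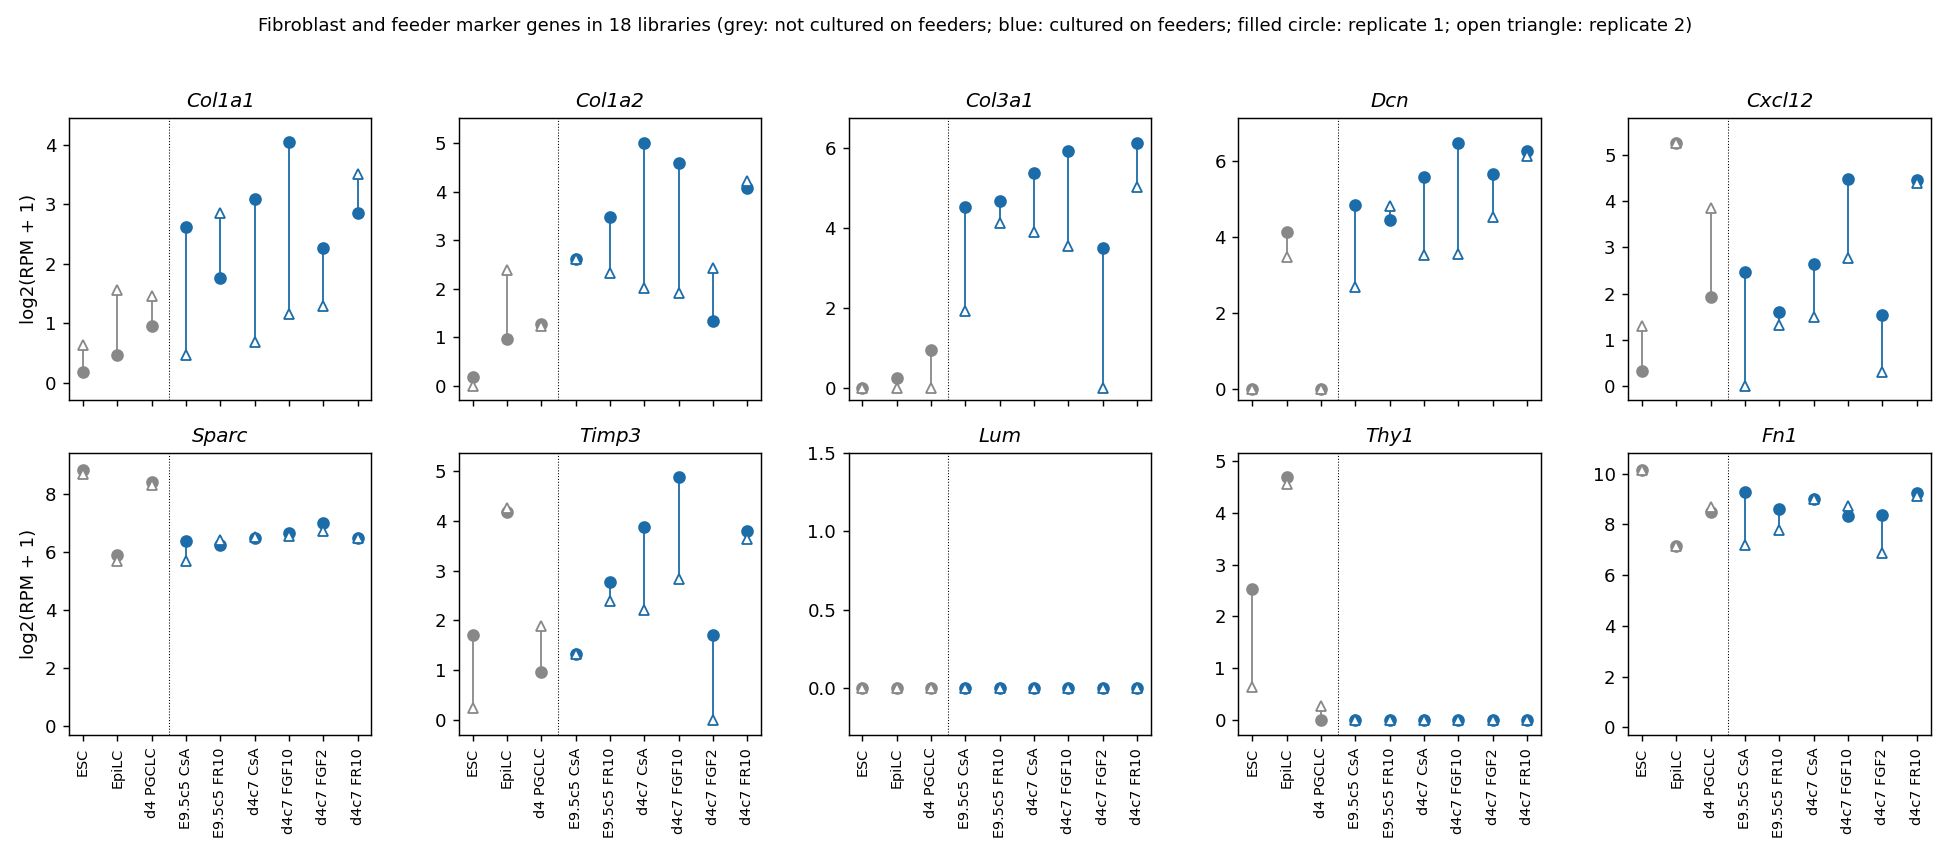
Level of each of the 10 genes, as log2(RPM + 1), in every library; circles are replicate 1, triangles replicate 2, and a line joins the 2 replicates of a group. Grey groups were feeder-free and blue groups cultured on feeders. Dcn and Col3a1 are high in blue and low or 0 in most grey libraries, Sparc and Fn1 are high in all, Thy1 is 0 in blue and Lum is 0 throughout.

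Col3a1 and Dcn were high in feeder-cultured cells and at or near 0 in ESC and d4 PGCLC. Col3a1 (chr1:45311538-45349706, GRCm38.p6) was at 68.9 and 31.8 RPM in d4c7 FR10, against 0.939 and 0 RPM in d4 PGCLC. In the other d4c7 groups Col3a1 was at 40.8 and 13.9 RPM in CsA, 60.4 and 10.7 RPM in FGF10, and 10.3 and 0 RPM in FGF2. In E9.5c5 it was at 22.0 and 2.83 RPM in CsA and at 24.8 and 16.6 RPM in FR10. It was thus present in 11 of 12 cultured libraries, and the only cultured library listed at 0 was FGF2 replicate 2. Among the 6 feeder-free libraries it stayed below the level of 3 reads, and 4 were at 0. Col3a1 holds a miRNA gene, Gm47302, whose reads cannot be told apart from its own.

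Dcn (chr10:97479500-97518163), decorin, was detected in all 12 cultured libraries. It was at 76.7 and 69.4 RPM in d4c7 FR10, and both d4 PGCLC libraries were listed at 0. In the other d4c7 groups it was at 47.5 and 10.6 RPM in CsA, 88.2 and 10.7 RPM in FGF10, and 50.2 and 22.1 RPM in FGF2. E9.5c5 cells had 27.7 and 5.47 RPM in CsA and 21.1 and 27.4 RPM in FR10. The 2 ESC libraries were also at 0, but EpiLC, grown without feeders, had 16.8 and 10.1 RPM. The EpiLC values lie within the range of cultured libraries, above E9.5c5 CsA replicate 2.

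Col1a2 (chr6:4505618-4541543) was at 15.9 and 17.6 RPM in d4c7 FR10, against 1.41 and 1.35 RPM in d4 PGCLC. Across all 12 cultured libraries it ran from 1.52 to 31.3 RPM with a median of 5.11 RPM, and across the feeder-free ones from 0 to 4.26 RPM with a median of 1.15 RPM. The ranges overlap, since EpiLC replicate 2 had 4.26 RPM. Col1a2 also overlaps the annotated locus Gm43921 on the same strand, and their reads cannot be told apart. Col1a1 (chr11:94936224-94953042), the partner chain of type I collagen, was low: its median was 4.46 RPM in cultured libraries and 0.747 RPM in feeder-free libraries, and its highest value was 15.6 RPM in FGF10 replicate 1. A pair of cultured libraries, CsA replicate 2 of d4c7 at 0.604 RPM and of E9.5c5 at 0.377 RPM, fell below the level of 3 reads for Col1a1.

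Lum was listed at 0 in all 18 libraries, including those with the most Dcn. The 2 genes are neighbours on chromosome 10, with 47337 bases between them. A value of 0 leaves room for a level of up to 0.397 to 1.41 RPM, depending on the library, and this limit covers counting error only. Thy1 (chr9:44043384-44048579) was also listed at 0 in all 12 cultured libraries, and its levels in feeder-free cells were 4.77 and 0.555 RPM in ESC, 24.8 and 22.4 RPM in EpiLC, and 0 and 0.193 RPM in d4 PGCLC. Of the 10 genes, then, Lum and Thy1 gave no signal on the feeders, while Thy1 was plainly read in EpiLC.

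**Figure D2:**
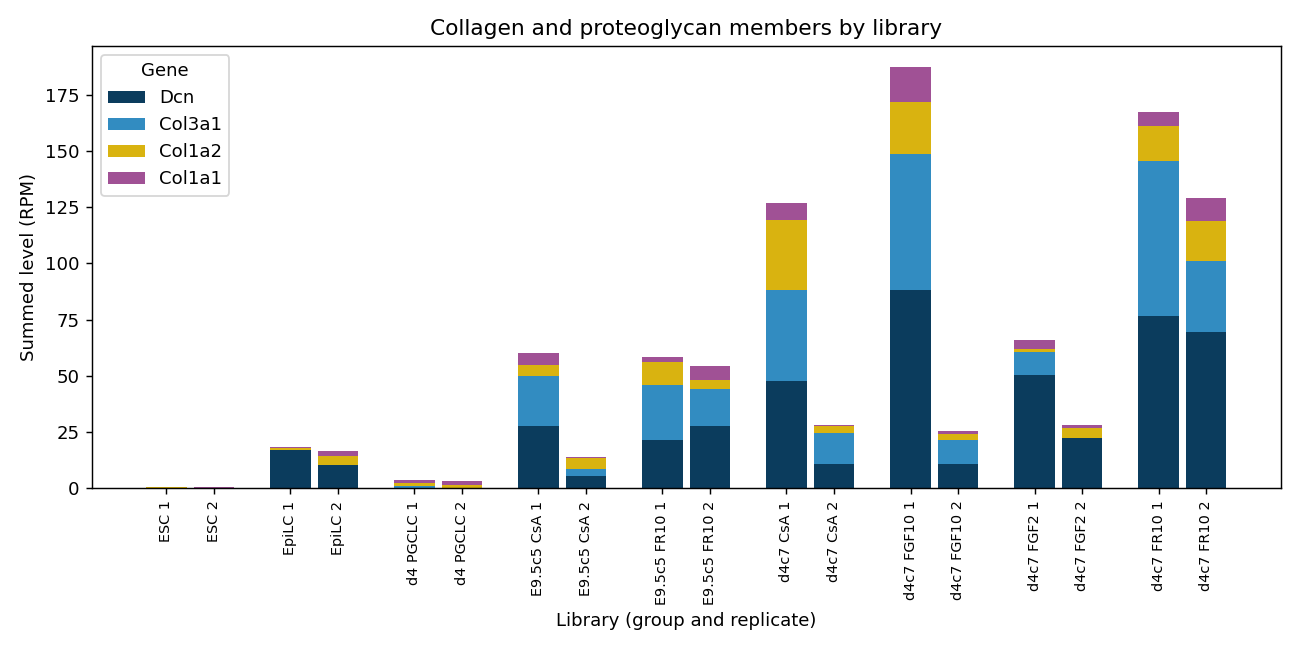
Stacked RPM of Dcn, Col3a1, Col1a2 and Col1a1 in each library (Lum was 0 in all). All cultured libraries except E9.5c5 CsA replicate 2 stand above every feeder-free library, and replicate 1 is well above replicate 2 in d4c7 CsA, d4c7 FGF10 and E9.5c5 CsA.

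The summed RPM of the 5 collagen and proteoglycan genes puts the libraries on 1 scale. It was 13.8 to 188 RPM in cultured libraries (median 59.2) and 0.265 to 18.3 RPM in feeder-free ones (median 3.19). By group mean the order was d4c7 FR10 (148 ± 27.3), FGF10 (106.5 ± 115), CsA (77.6 ± 70.0), E9.5c5 FR10 (56.4 ± 3.03), d4c7 FGF2 (46.9 ± 26.8), E9.5c5 CsA (36.9 ± 32.7), EpiLC (17.3 ± 1.44), d4 PGCLC (3.19 ± 0.14) and ESC (0.41 ± 0.205), each in RPM with the SD of 2 libraries. Neighbours from FR10 down to EpiLC overlap in their libraries. EpiLC and d4 PGCLC do not overlap, nor do d4 PGCLC and ESC.

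Replicates of 1 culture condition differed widely in some groups. The sum was 7.39 times higher in FGF10 replicate 1 (188 RPM) than in replicate 2 (25.4 RPM). It was 4.52 times higher in CsA replicate 1 (127 RPM) than in replicate 2 (28.1 RPM) of d4c7, and 4.36 times higher in E9.5c5 CsA replicate 1 (60.0 RPM) than in replicate 2 (13.8 RPM). In FGF2 the ratio was 2.36. The FR10 replicates were close, with 168 and 129 RPM in d4c7 and 58.5 and 54.2 RPM in E9.5c5. In bulk libraries fewer cells of a type and less RNA per cell cannot be told apart, and the cells that these reads came from were not tested.

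Sparc and Fn1 behaved otherwise, with high levels whether or not feeders were present. Sparc (chr11:55394159-55420080) was at 87.9 and 89.1 RPM in d4c7 FR10, against 342 and 316 RPM in d4 PGCLC, and at 449 and 412 RPM in ESC. Its 12 cultured libraries lay between 50.1 and 125 RPM, every one below every ESC and d4 PGCLC library, and the lowest feeder-free values were the 58.5 and 50.3 RPM of EpiLC. Fn1 (chr1:71585473-71653280) was at 118 to 628 RPM in cultured libraries, with a median of 404 RPM. In feeder-free cells it was at 1136 and 1118 RPM in ESC, 140 and 139 RPM in EpiLC, and 354 and 412 RPM in d4 PGCLC, so that the cultured range spans the d4 PGCLC levels. Sparc and Fn1 together made up 64.2% to 94.7% of the summed RPM of the 10 genes in cultured libraries and 66.9% to 99.8% in feeder-free ones. Fn1 overlaps the antisense gene Apol7d, and without a stated strand setting their reads cannot be told apart.

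Timp3 and Cxcl12 were intermediate. Timp3 (chr10:86300412-86349505) was at 12.8 and 11.4 RPM in d4c7 FR10, against 0.939 and 2.70 RPM in d4 PGCLC, and it was at 17.1 and 18.2 RPM in EpiLC. In the remaining cultured groups it ran from 0 RPM in FGF2 replicate 2 to 28.2 RPM in FGF10 replicate 1. Timp3 lies across Syn3 on the opposite strand, so the reads of the 2 genes cannot be told apart. Cxcl12 (chr6:117168535-117181368) was at 20.9 and 20.0 RPM in d4c7 FR10, against 2.82 and 13.3 RPM in d4 PGCLC. EpiLC had the highest levels, 37.0 and 37.1 RPM, above all 12 cultured libraries. FGF10 replicate 1 (21.1 RPM) was the only other cultured library above 10 RPM for Cxcl12; E9.5c5 libraries stayed between 0 and 4.52 RPM.

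**Figure D3:**
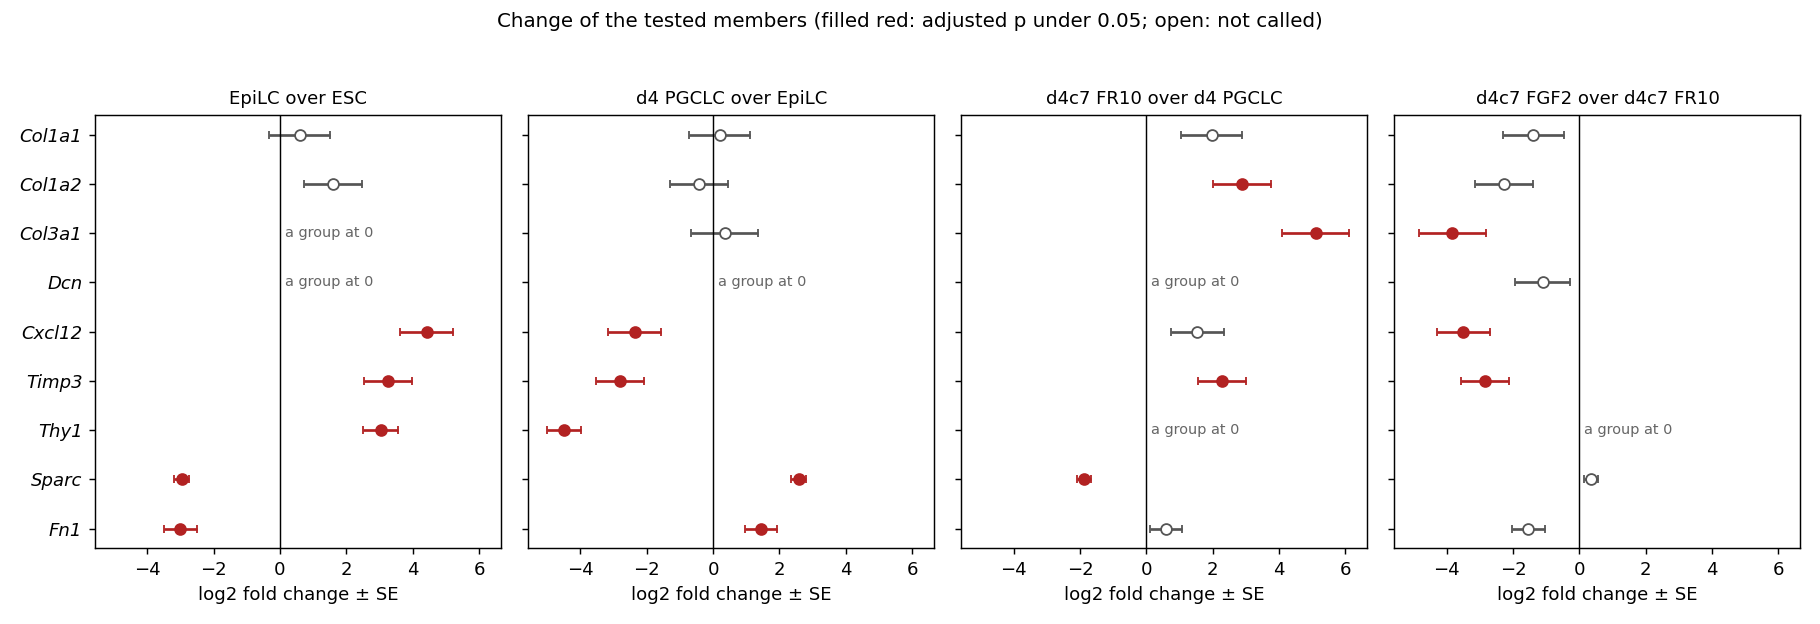
Log2 fold change with SE of the 9 tested genes in 4 comparisons, the first-named group over the second; filled red points were called, open points were not, and no point is drawn where a group was listed at 0. Col3a1 is far right of 0 and Sparc left of 0 in d4c7 FR10 over d4 PGCLC, and Col3a1, Cxcl12 and Timp3 are left of 0 in d4c7 FGF2 over d4c7 FR10.

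With d4c7 FR10 set against d4 PGCLC, 4 of the 9 tested genes rose and 1 fell, where 7.01% of all tested genes rose and 8.22% fell. Col3a1 rose by 5.10 ± 1.01 on the log2 scale (limma adjusted p = 0.00239), Col1a2 by 2.90 ± 0.88 (limma adjusted p = 0.034) and Timp3 by 2.29 ± 0.73 (limma adjusted p = 0.0432). Dcn rose with a limma adjusted p of 9.25e-05 and is given no fold, since d4 PGCLC were listed at 0. Sparc fell by 1.88 ± 0.22 (limma adjusted p = 2.71e-05). The others did not pass: the change was 1.97 ± 0.92 for Col1a1 (limma adjusted p = 0.17), 1.54 ± 0.79 for Cxcl12 (limma adjusted p = 0.223) and 0.59 ± 0.49 for Fn1 (limma adjusted p = 0.473). Dcn, Col3a1 and Sparc stayed called when any 1 of the 4 libraries was left out. Col1a2 and Timp3 lost their calls with each of the 4 left out in turn (limma adjusted p = 0.122 to 0.165 for Col1a2 and 0.0801 to 0.282 for Timp3), and neither passed with no filter on low genes (limma adjusted p = 0.111 for Col1a2 and 0.126 for Timp3).

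Over the 4 d4c7 groups together, 8 libraries against the same 2 d4 PGCLC libraries, 3 of the 9 genes rose and 1 fell, where 12.3% of all tested genes rose and 23.1% fell. Dcn rose (limma adjusted p = 1.58e-05, d4 PGCLC at 0), as did Col3a1 by 3.70 ± 0.80 (limma adjusted p = 0.00184) and Col1a2 by 1.95 ± 0.69 (limma adjusted p = 0.0376), and Sparc fell by 1.76 ± 0.17 (limma adjusted p = 1.53e-06). Timp3 did not pass, at 1.44 ± 0.58 (limma adjusted p = 0.0611). Dcn and Sparc stayed called without any 1 of the 10 libraries. Without d4 PGCLC replicate 2 the count was 2, and Col3a1 did not pass (3.22, limma adjusted p = 0.0523). Col1a2 was called only without CsA replicate 2, FGF10 replicate 2 or FGF2 replicate 1, and Timp3 joined the calls without replicate 2 of CsA, FGF10 or FGF2. The median change of all tested genes was -0.23 here. Median-ratio scaling moved it to -0.01, turned 1175 genes higher and 2207 lower into 1669 and 1570, and added a call for Timp3 (1.54, limma adjusted p = 0.0457).

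No marker was called when the CsA or the FGF10 cultures were set against FR10. In d4c7 CsA against FR10, 0 of 9 were called (0.0314% of all tested genes, 3 genes), and 1 had an unadjusted p under 0.05, as did 13.8% of all tested genes. That gene was Cxcl12, at 5.21 and 1.81 RPM in CsA against 20.9 and 20.0 RPM in FR10, with a change of -2.36 ± 0.79 (limma adjusted p = 0.225). Dcn had 47.5 and 10.6 RPM in CsA, both below the 76.7 and 69.4 RPM of FR10, and a change of -1.64 ± 0.83 (limma adjusted p = 0.395). In d4c7 FGF10 against FR10, 0 of 9 were called and none had an unadjusted p under 0.05, with 0% of all tested genes called and 4.99% (477 genes) at an unadjusted p under 0.05. Col3a1 changed by -0.84 ± 1.01 and Dcn by -1.19 ± 0.83 (limma adjusted p = 0.99 for both). Without FGF10 replicate 2 their changes turned to 0.36 and 0.27. When FGF2 replicate 2 and replicate 2 of both E9.5c5 groups were left out, 1 of the 9 was called in each of these comparisons, Cxcl12 lower in CsA and Fn1 lower in FGF10, where 8.29% and 0.22% of all tested genes were called lower in CsA and in FGF10.

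In d4c7 FGF2 against FR10, 3 of the 9 markers fell, where 7.47% of all tested genes fell. The median change of all tested genes was -0.33, and median-ratio scaling moved it to -0.03 and turned 131 genes higher and 714 lower into 285 and 259. Cxcl12 had 1.90 and 0.243 RPM in FGF2 against 20.9 and 20.0 RPM in FR10, and fell by 3.50 ± 0.79 (limma adjusted p = 0.0195). Col3a1 fell by 3.83 ± 1.01 (limma adjusted p = 0.0305) and Timp3 by 2.85 ± 0.73 (limma adjusted p = 0.0285). The groups did not overlap in these 3 genes. Nor did they in Col1a1, Col1a2, Dcn and Fn1, lower in FGF2, or in Sparc, higher in FGF2, and none of these was called. The share of all tested genes without overlap is not given here. Col1a2 also lay lower in both FGF2 libraries, 1.52 and 4.37 RPM against 15.9 and 17.6 RPM in FR10, with a change of -2.27 ± 0.88 (limma adjusted p = 0.105). Fn1 changed by -1.54 ± 0.49 (limma adjusted p = 0.0586), and Dcn by -1.10 ± 0.83 (limma adjusted p = 0.382). Of the 9, 0 were called without FGF2 replicate 2, without FR10 replicate 1 or without FR10 replicate 2, with limma adjusted p of 0.0782 to 0.175 for Cxcl12, 0.0798 to 0.322 for Col3a1 and 0.0962 to 0.247 for Timp3. Without FGF2 replicate 1, 4 were called, the same 3 and Fn1, all lower in FGF2, where 15.6% of all tested genes were. Of the 12 germ cell markers, 3 fell in FGF2 and 9 were not called, with a median change of -0.75. Among the uncalled, Utf1, Pou5f1 and Dazl changed upward, by 0.32, 0.25 and 0.17. Kit, the SCF receptor gene, averaged 45.75 ± 3.35 RPM in FGF2 and 206 ± 33.75 RPM in FR10 (SD, n = 2 each; limma adjusted p = 0.000714). Dppa3 fell by 1.00 and Prdm1 by 2.04 (limma adjusted p = 0.0251 and 0.0157), and both lost their calls without FGF2 replicate 2 or either FR10 library (limma adjusted p = 0.0947 to 0.19 for Dppa3 and 0.0694 to 0.156 for Prdm1). Their part in the marker changes was not tested.

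In the embryo-derived cells, E9.5c5 CsA against FR10, 0 of 9 markers were called and none had an unadjusted p under 0.05. Of all tested genes 0% were called, and 7.35% (703 genes) had an unadjusted p under 0.05. The collagen and proteoglycan sum was 60.0 and 13.8 RPM in CsA against 58.5 and 54.2 RPM in FR10. Col3a1 changed by -1.18 ± 1.01 (limma adjusted p = 0.805), and by 0.11 without E9.5c5 CsA replicate 2. The difference between the CsA effects in E9.5c5 and in d4c7, tested as an interaction, was called for 0 of the 9 markers and for 0 of all tested genes.

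E9.5c5 cells, in FR10 and CsA combined, were set against the d4c7 cells of the same 2 conditions. Of the 9 markers 0 were called, where 0.607% of all tested genes were, and 3 had an unadjusted p under 0.05, as did 19.9% of all tested genes. Cxcl12 averaged 2.02 ± 1.88 RPM in E9.5c5 and 12.0 ± 9.89 RPM in d4c7 (SD, n = 4 each), a change of -1.90 ± 0.56 (limma adjusted p = 0.107). Dcn averaged 20.4 ± 10.4 RPM in E9.5c5 and 51.0 ± 29.7 RPM in d4c7, with overlapping libraries. Sparc, at 50.1 to 83.4 RPM in E9.5c5 and 87.9 to 90.04 RPM in d4c7, did not overlap, but its change of -0.32 ± 0.15 did not pass (limma adjusted p = 0.262). Without E9.5c5 CsA replicate 1, 4 markers were called, Cxcl12, Dcn, Fn1 and Sparc, all lower in E9.5c5, where 19% of all tested genes were. Strain, reporter, days in culture and source all differed between these groups and cannot be told apart.

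Before any contact with feeders, 4 of the 9 tested markers rose and 2 fell when EpiLC were set against ESC, where 7.09% of all tested genes rose and 8.86% fell. Thy1 is among the 4 and was tested only because of its EpiLC level, so its change here is a description; with no filter on low genes it gave a limma adjusted p of 0.00058. Cxcl12 rose by 4.43 ± 0.79 (limma adjusted p = 0.00077), Thy1 by 3.04 ± 0.53 (limma adjusted p = 0.00056) and Timp3 by 3.25 ± 0.73 (limma adjusted p = 0.00474). Dcn rose with a limma adjusted p of 0.00373, with ESC listed at 0. Fn1 fell by 3.00 ± 0.49 (limma adjusted p = 0.000357) and Sparc by 2.96 ± 0.22 (limma adjusted p = 7.18e-08). Without EpiLC replicate 1 the call for Dcn was lost (limma adjusted p = 0.0526), as was that for Timp3 without ESC replicate 2 (2.52, limma adjusted p = 0.0926). In EpiLC, Cxcl12 lay above all 12 cultured libraries, and Timp3 and Dcn lay within their cultured range.

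In d4 PGCLC against EpiLC, 2 of the 9 rose and 4 fell, where 27.5% of all tested genes rose and 12.1% fell. Thy1 is among the 4, again tested only through EpiLC, and with no filter it gave a limma adjusted p of 1.69e-05. The median change of all tested genes was 0.34; median-ratio scaling moved it to 0.00 and turned 2629 genes higher and 1155 lower into 1666 and 1786. Under that scaling the call for Fn1 was lost (1.08, limma adjusted p = 0.0536). This comparison and that of EpiLC with ESC share the EpiLC libraries. Sparc rose by 2.58 ± 0.22 (limma adjusted p = 1.72e-07) and Fn1 by 1.45 ± 0.49 (limma adjusted p = 0.0273). Thy1 fell by 4.49 ± 0.53 (limma adjusted p = 5.94e-06), Timp3 by 2.80 ± 0.73 (limma adjusted p = 0.00606) and Cxcl12 by 2.36 ± 0.79 (limma adjusted p = 0.0257), and Dcn fell with d4 PGCLC at 0 (limma adjusted p = 0.00166). Sparc, Thy1 and Dcn stayed called without any 1 library. The call for Fn1 was lost without each of the 4 libraries in turn (limma adjusted p = 0.0833 to 0.124). Without d4 PGCLC replicate 1 the count was 3, with Cxcl12 at -1.41 (limma adjusted p = 0.286) and Timp3 at -2.33 (limma adjusted p = 0.0731), and Cxcl12 did not pass without either EpiLC library (limma adjusted p = 0.0988 and 0.106). The fibrillar collagens were called in neither step: Col1a2 was at 1.41 and 1.35 RPM in d4 PGCLC and at 0.953 and 4.26 RPM in EpiLC, and Col1a1 and Col3a1 stayed below 2 RPM in both groups.

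Beyond the 10 markers, 143 further genes in 10 lists were read for the same comparisons. In d4c7 FR10 against d4 PGCLC, where the median change of all tested genes was -0.069, 4 of the 8 tested genes of other collagens and matrix rose and 0 fell, where 7.01% of all tested genes rose and 8.22% fell. Only 8 of the 24 listed genes passed the filter, and the 4 that rose reached 10 RPM only in cultured libraries, so the count leans towards culture by its selection. With no filter, 3 of 23 rose and 1 fell, and Col6a1 was the only 1 of the 4 still called (limma adjusted p = 0.0299). The share of all genes called with no filter is not given here. Unfiltered counts of this list and of those below are therefore descriptions only. Col6a1 and Col6a2, chains of the microfibrillar type VI collagen, rose by 3.80 ± 0.84 and 2.86 ± 0.81 (limma adjusted p = 0.00568 and 0.0249). Col5a2, a chain of the type V collagen found within type I fibres, rose by 3.16 ± 0.86, and Loxl1, a lysyl oxidase that cross-links elastic matrix, by 2.77 ± 0.78 (limma adjusted p = 0.0193 and 0.0236). Left-out libraries cost calls here: Col6a1 did not pass without d4 PGCLC replicate 1 (limma adjusted p = 0.0557), Col6a2 and Loxl1 did not pass with each of the 4 libraries left out in turn (limma adjusted p = 0.0962 to 0.142 and 0.0828 to 0.148), and Col5a2 passed only without d4c7 FR10 replicate 1. Eln, Mfap4 and Fmod were at 0 in all 12 cultured libraries.

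Of 18 genes for collagen processing and turnover, 13 were tested, 2 rose and 1 fell in that comparison. Of all tested genes 7.01% rose and 8.22% fell. The median of the list was -0.11, beside -0.069 for all tested genes. Pcolce, an enhancer of procollagen C-proteinase, rose by 3.74 ± 0.61, and Crtap, a partner of the prolyl 3-hydroxylase complex, by 1.63 ± 0.25 (limma adjusted p = 0.000531 and 0.00029). Pcolce was at 31.4 and 27.6 RPM in d4c7 FR10 and 1.41 and 1.16 RPM in d4 PGCLC, but ESC had 153 and 157 RPM. Crtap was at 101.5 and 117.7 RPM in d4c7 FR10 and 35.7 and 33.6 RPM in d4 PGCLC, but ESC had 102.2 and 106.4 RPM. The lysyl hydroxylase gene Plod2 fell by 1.96 ± 0.64 (limma adjusted p = 0.0462), a call kept only without d4c7 FR10 replicate 1 (limma adjusted p = 0.17 to 0.396 without the others). Serpinh1, the collagen chaperone HSP47, was at 58.1 and 48.3 RPM in d4c7 FR10 and at 97.7 and 118 RPM in d4 PGCLC and was not called.

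Of 28 mesenchymal and stromal markers, 15 were tested, 8 rose and 1 fell, where 7.01% of all tested genes rose and 8.22% fell. Of the 8, 7 reached 10 RPM only in cultured libraries, so this count too leans towards culture by its selection. With no filter 7 of 28 rose and 1 fell, again without a share of all genes beside it. With each of the 4 libraries left out in turn, 1 to 4 of the 8 stayed called, and Ptn alone did so each time. Igfbp7, an IGF-binding protein of stroma and vessels, rose by 2.58 ± 0.50 (limma adjusted p = 0.00225) and the calcium-binding S100a4 by 3.58 ± 0.70 (limma adjusted p = 0.00231). Without d4 PGCLC replicate 1 Igfbp7 and S100a4 gave 1.92 (limma adjusted p = 0.0587) and 2.96 (limma adjusted p = 0.0522). Ptn, the growth factor pleiotrophin, was at 15.1 and 13.5 RPM in d4c7 FR10 and at 0 in d4 PGCLC (limma adjusted p = 0.00024). Fstl1, follistatin-like 1, fell by 3.95 ± 0.41 (limma adjusted p = 9.59e-06), with 43.8 and 39.0 RPM in d4c7 FR10 and 758 and 562 RPM in d4 PGCLC. The surface receptors Pdgfra and Pdgfrb, which mark many fibroblasts, did not exceed 8.16 RPM in any cultured library. In the list of 12 bone marrow stroma and adipogenic genes, 2 were tested and both rose, Angptl4 (limma adjusted p = 0.00356) and Vcam1 (d4 PGCLC at 0, limma adjusted p = 0.00864). Vcam1 reached 10 RPM only in cultured libraries, and with no filter the same 2 of 10 rose. Angptl4 was at 23.2 and 23.1 RPM in d4c7 FR10, but feeder-free ESC had 24.5 and 32.9 RPM. Angptl4 did not pass without d4 PGCLC replicate 1 (limma adjusted p = 0.0847), nor Vcam1 without d4c7 FR10 replicate 2 or either d4 PGCLC library (limma adjusted p = 0.056 to 0.0727), while Lepr and Il6 were at 0 in all 18 libraries.

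Markers of other cell types were read beside these. Of 11 smooth muscle and contractile genes 6 were tested and 0 called in d4c7 FR10 against d4 PGCLC, with a summed level of 133 to 242 RPM in cultured and 52.2 to 392 RPM in feeder-free libraries. Of 10 blood and macrophage markers 0 passed the filter; their sum was 0.612 to 29.0 RPM in cultured and 1.33 to 14.04 RPM in feeder-free libraries, and the pan-leukocyte gene Ptprc was at 0 in all 18. Of 8 endothelial markers 5 were tested and 1 rose, where 7.01% of all tested genes rose. It was the angiopoietin receptor gene Tek (limma adjusted p = 0.00356), a call lost without d4c7 FR10 replicate 2. Tek reached 10 RPM only in cultured libraries, and with no filter it was still called. It was at 6.97 and 10.7 RPM in d4c7 FR10, but feeder-free ESC had 9.41 and 6.29 RPM. The sum of the 8 endothelial markers was 104 to 184 RPM in cultured and 48.4 to 101 RPM in feeder-free libraries. In cultured libraries most of this sum was Pecam1 and Egfl7. In cultured libraries Cldn5 reached 22.25 RPM, Esam 16.3 RPM and Tek 13.0 RPM, while Cdh5, Kdr and Tie1 did not exceed 1.02, 0.918 and 0.486 RPM. The part of these cell types in the marker levels was not tested.

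**Figure D4:**
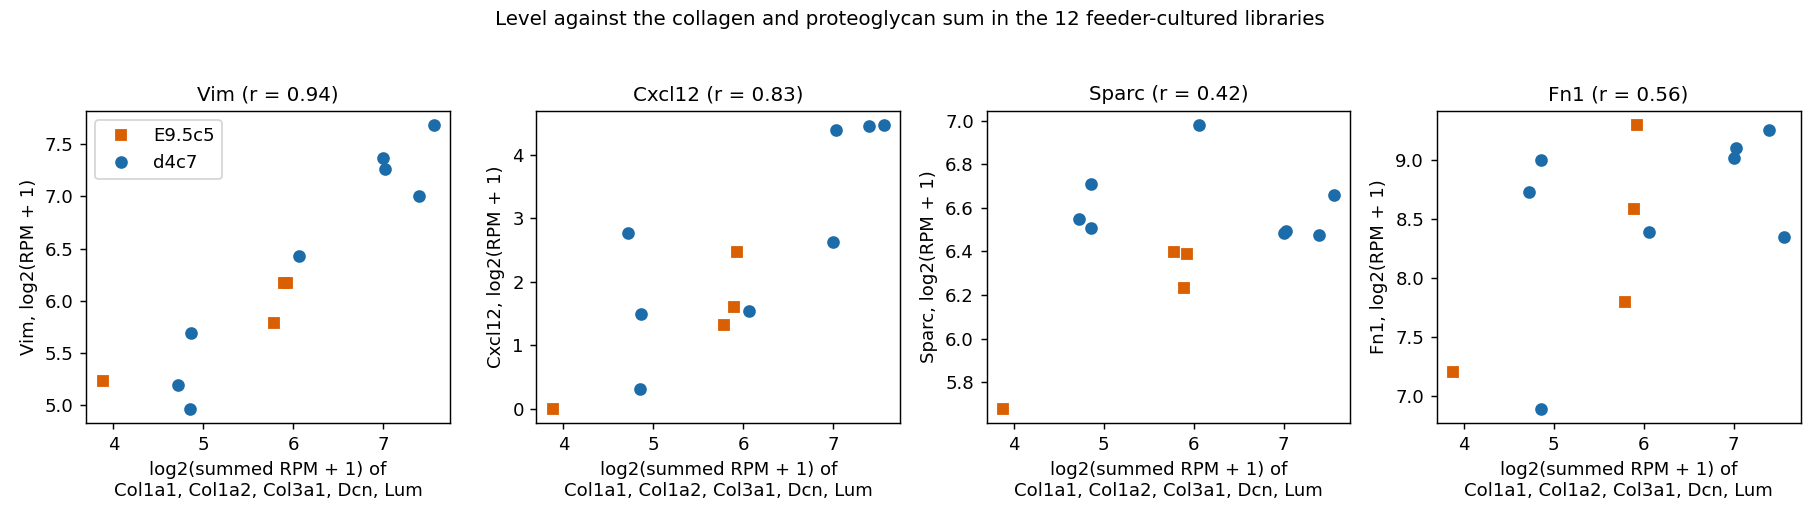
Vim, Cxcl12, Sparc and Fn1, as log2(RPM + 1), against the collagen and proteoglycan sum on the same scale in the 12 cultured libraries (squares E9.5c5, circles d4c7; r is Pearson's). Vim climbs with the sum along nearly its whole range (r = 0.94), and Cxcl12 less tightly (r = 0.83); Sparc (r = 0.42) and Fn1 (r = 0.56) are scattered.

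Genes with at least 10 RPM in at least 2 of the 12 cultured libraries were ranked, leaving out predicted genes, clone names, microRNAs and snoRNAs. The 8194 other genes so kept were ordered by likeness to the collagen and proteoglycan sum across these 12 libraries. Likeness was Pearson's r on the log2(RPM + 1) scale. These libraries share feeders, medium and amplification method, and the values describe them with no test. The gene most like the sum was Vim, the intermediate filament protein vimentin, with r = 0.94. Hist1h1c (r = 0.92), Ugt1a6b (r = 0.92), Mcm5 (r = 0.90) and Tmem176b, Ptgs1, Zfp655 and Slpi (r = 0.89 each) followed. Vim was at 205 and 35.5 RPM in FGF10 replicates 1 and 2, and at 164 and 50.8 RPM in CsA replicates 1 and 2 of d4c7, the same order as the sum. It was not low without feeders, with 429 and 410 RPM in d4 PGCLC and 589 and 583 RPM in ESC. Ugt1a6b, a glucuronosyltransferase gene, was listed at 0 in all 6 feeder-free libraries and reached 14.8 RPM in FGF10 replicate 1.

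Of the markers outside the sum, Cxcl12 ranked 31st of these 8194 genes (r = 0.83) and Timp3 107th (r = 0.76). Fn1 ranked 1252nd (r = 0.56) and Sparc 2601st (r = 0.42). Within the sum, r was 0.96 for Dcn, 0.93 for Col1a1, 0.81 for Col3a1 and 0.74 for Col1a2, each of which is part of what it is set against. Of the markers outside the sum, then, Cxcl12 and Timp3 went with it more closely than Fn1 and Sparc.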

How the data were processed

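The files deposited by the authors give 1 RPM value per gene and library, with totals of 999098 to 999617. Per the submitters' processing notes, mm10 was the genome build and cutadapt 1.3, TopHat 1.4.1 and Cufflinks 2.2.0 were used, with no role stated. The annotation and the strand and counting rules were not given in the sources used here. SC3-seq reads transcript ends, so genes sharing 3′ sequence or overlapping each other can share reads. Of 34896 genes, 46 had no value and were left out. Between 34 and 57 values per library lay below the inferred read step, so no count model was used. Amplified reads are not independent molecules; limits cover counting error only.

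All 18 libraries entered 1 limma 3.58.1 fit (R 4.3.3) of log2(RPM + 1), with a mean per group, an intensity trend of the variance and 9 residual degrees of freedom. The fit was tested on simulated data. The main fit did not pair libraries by replicate number. Genes were named by rule: all 10 markers, the germ cell markers and the 8 genes most like the collagen and proteoglycan sum. From each list, up to 4 called (or 2 uncalled) genes were added by smallest p. Pdgfra, Pdgfrb, Serpinh1, Egfl7, Pecam1, Cldn5, Esam, Cdh5, Kdr and Tie1 and genes listed at 0 were named after their values were seen. So were Hbb-y, Hba-x, Lyz2, Fcer1g, Csf1r, Tyrobp, Gata4, Sox17, Sox7, Foxa2, Cubn and Dab2. Markers and lists were chosen with earlier results of these data known. As alternatives, pseudocounts were set to 0.1 and 10 RPM and the filter to none and 50 RPM, and the fit was repeated with median-ratio scaling, the compared groups alone, a replicate block and each library left out.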

Additional observations from a re-analysis of the deposited data

How the results depend on the processing

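Each setting was changed alone. In d4c7 FR10 against d4 PGCLC, 5 of 9 markers were called as reported and 3 with a pseudocount of 0.1 RPM, with no filter and at 50 RPM, 3 without any 1 library, and 7 with the compared groups alone (25.1% of all tested genes called, 15.2% as reported). In d4c7 FGF2 against FR10 the 3 became 1 at 0.1 RPM, 0 with no filter, 1 at 50 RPM, 0 with the compared groups alone, and 0 to 4 with a library left out. In EpiLC against ESC and in d4 PGCLC against EpiLC, 6 became 3 at 50 RPM, EpiLC against ESC gave 7 with the compared groups alone (33.3% of all tested genes called, 16% as reported), and with a library left out the counts were 5 to 6 and 3 to 5. They were 2 to 5 (4 as reported) for the 4 d4c7 groups against d4 PGCLC and 0 to 4 (0 as reported) for E9.5c5 against d4c7. An alternative chosen after seeing the data left out d4c7 FGF2 replicate 2, E9.5c5 FR10 replicate 2 and E9.5c5 CsA replicate 2, and gave 1 called marker in d4c7 CsA and in d4c7 FGF10 against FR10. At 50 RPM fewer genes are tested, and with a library left out fewer samples; the cause of the other shifts was not tested.

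Over all tested genes, leaving out a library gave 573 to 825 called genes in d4c7 FR10 against d4 PGCLC (1456 as reported), 5 to 1722 in d4c7 FGF2 against FR10 (845), 6 to 2213 in E9.5c5 against d4c7 (58) and 0 to 654 in E9.5c5 CsA against FR10 (0); other settings gave 0 to 968 in d4c7 CsA against FR10 (3) and 0 to 39 in FGF10 against FR10 (0). Among the 52 gene changes followed here, 3 uncalled ones turned direction with a replicate of the treated group left out. In d4c7 FGF10 against FR10, Dcn was at -2.66 without FGF10 replicate 1 and 0.27 without replicate 2, and Col3a1 at -2.03 and 0.36. In E9.5c5 CsA against FR10, Col3a1 was at -2.48 without CsA replicate 1 and 0.11 without replicate 2. Marker changes outside the 52 could also turn. Col1a2 changed by -0.89 in d4c7 FGF10 against FR10, yet FGF10 replicate 1 (23.4 RPM) lay above both FR10 libraries (15.9 and 17.6 RPM). Of 644 values of 52 gene changes under all alternatives, 539 kept direction and side of the threshold, 85 lost the call and 17 gained it.

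The summed RPM of all 10 markers was 1563 in ESC, 289.6 in EpiLC, 725.6 in d4 PGCLC and 847.6 in d4c7 FR10, and became 1643, 304.2, 592.7 and 728.7 under median-ratio scaling. The collagen and proteoglycan sum alone was 0.41, 17.27, 3.188 and 148.4 in those groups, and 77.57 in d4c7 CsA, 106.5 in FGF10, 46.89 in FGF2, 36.86 in E9.5c5 CsA and 56.38 in E9.5c5 FR10.

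With a replicate block the counts of called markers were 5 for d4c7 FR10 and 5 for the 4 d4c7 groups against d4 PGCLC, 4 for FGF2, 0 for CsA and for FGF10 against FR10, 0 in both E9.5c5 comparisons, and 6 in both steps before culture. The share of all tested genes called under the block, beside that reported, was 16.3% and 15.2% for d4c7 FR10, 37.2% and 35.4% for the 4 d4c7 groups, and 12.2% and 8.84% for FGF2. Replicate differences correlated between groups at -0.10 to 0.34 over 36 pairs of groups, above 0.1 in 7. The collagen and proteoglycan sum was higher in replicate 1 than in replicate 2 in every cultured group. The ratio ran from 1.08 in E9.5c5 FR10 to 7.39 in d4c7 FGF10. A difference shared by replicates of 1 number was not tested beyond the block. Most cultured levels of Col1a1, Cxcl12 and Timp3 were a few RPM, where 3 reads are 0.397 to 1.41 RPM, and 2 libraries a group limit every comparison.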

Other observations

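Basement membrane genes are made by many epithelial cells as well as by stroma. Of 9 genes 7 were tested; over the 4 d4c7 groups against d4 PGCLC, Col4a2 and Nid1 rose and the laminin chains Lamb1 and Lamc1 fell (2 up and 2 down of 7, where 12.3% of all tested genes rose and 23.1% fell). Their median change was -0.29, beside -0.23 for all tested genes. Lamb1 averaged 43.0 ± 17.98 RPM in the 8 d4c7 libraries and 116 ± 3.88 RPM in the 2 d4 PGCLC libraries (limma adjusted p = 0.00282). Lamb1 stayed called without any 1 library. Nid1 did not pass without d4 PGCLC replicate 2 (limma adjusted p = 0.408), nor Lamc1 without either d4 PGCLC library (limma adjusted p = 0.0753 and 0.0938), nor Col4a2 without d4c7 FR10 replicate 2, replicate 1 of CsA, FGF10 or FGF2, or either d4 PGCLC library (limma adjusted p = 0.0519 to 0.303). In d4c7 FR10 alone against d4 PGCLC, 0 of the 7 were called.

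Extraembryonic endoderm markers summed to 13.8 to 78.5 RPM in cultured and 6.89 to 27.9 RPM in feeder-free libraries, with the highest sum in d4c7 FGF2 replicate 2. Amn, which encodes the cubilin partner amnionless, made up most of that sum: it was at 21.3 and 58.3 RPM in d4c7 FGF2 and 23.0 and 24.5 RPM in d4c7 FGF10. Of 11 genes 2 were tested, Gata6 and Amn, and both rose in d4c7 FR10 against d4 PGCLC, where 7.01% of all tested genes rose. Gata6 reached 10 RPM only in cultured libraries. With no filter on low genes 2 of 11 rose, Amn and Gata4, and Gata6 was not called. Gata6 was at 12.0 and 7.25 RPM in d4c7 FR10 and 1.41 and 0 RPM in d4 PGCLC (limma adjusted p = 0.0239). Amn was at 13.2 and 13.1 RPM in d4c7 FR10 and 2.35 and 5.02 RPM in d4 PGCLC (limma adjusted p = 0.0218), but feeder-free EpiLC had 10.3 and 12.8 RPM. Each lost its call without either d4c7 FR10 library (limma adjusted p = 0.148 and 0.078 for Gata6, 0.0969 and 0.112 for Amn), Gata6 also without d4 PGCLC replicate 2 (limma adjusted p = 0.209) and Amn without d4 PGCLC replicate 1 (limma adjusted p = 0.222). Sox17 and Ttr, from the same list, stayed below the level of 3 reads in all cultured libraries. Others of the list did not. Sox7 reached 5.79 RPM in d4c7 CsA replicate 1 and Foxa2 4.77 RPM in E9.5c5 FR10 replicate 2. Cubn and Dab2 each reached 4.62 RPM in d4c7 FGF2 replicate 2.

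The embryonic globin genes Hbb-y and Hba-x were read in 1 library, d4c7 FR10 replicate 2, at 16.2 and 8.63 RPM, and were listed at 0 in the other 17. The macrophage gene Lyz2 was at 8.51 RPM in E9.5c5 FR10 replicate 1, at 3.62 RPM in E9.5c5 CsA replicate 1 and at 0 in 8 of the 12 cultured libraries. Fcer1g of the same list was also highest in E9.5c5 FR10 replicate 1 (2.04 RPM). Csf1r was instead highest in d4c7 FGF2 replicate 2 (4.86 RPM) and Tyrobp in d4c7 FR10 replicate 1 (3.87 RPM).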
